A study of Mus musculus with 48 samples.

Results

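The mitochondrial ribosomal protein genes, whose symbols begin with Mrpl for the large subunit and Mrps for the small subunit, were examined in mouse embryonic stem cells with altered Mll3 (Kmt2c) and Mll4 (Kmt2d), histone methyltransferases that act at enhancers. Members were all rows of the expression table whose symbol is Mrpl or Mrps, a number and optionally a or b: 76 of 48321 rows, 48 of them large and 28 small subunit genes. A level of at least 1 TPM, a read density per length of gene scaled to a fixed total per library, in at least 3 of the 9 libraries was reached by 75 members (47 large and 28 small) and by 16179 genes in all. The series compares 3 genotypes of male R1 embryonic stem cells (strain 129SV): wild type (WT), a double knockout of Mll3 and Mll4 (Mll3/4 dKO), and a line in which both proteins are catalytically deficient (Mll3/4 dCD). All cells were kept in serum-free 2i+LIF medium, with the MEK inhibitor PD0325901 and the GSK3b inhibitor CHIR99021, on dishes coated with polyL-ornithine and laminin, and were moved to fibronectin before collection. Of the 48 samples, the 9 polyadenylated RNA libraries (3 per genotype) are used here. The labels name 1 line per genotype; they are silent on which exons were edited and on whether replicates were separate cultures. The p-values therefore measure only the spread between these libraries, and a clone's effect cannot be told apart from that of its genotype.

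The mitochondrial ribosome sits in the mitochondrial matrix and translates the few messenger RNAs of the mitochondrial genome, all of which encode subunits of the respiratory chain and ATP synthase. Its ribosomal RNAs are made in the organelle, whereas all of its proteins are encoded in the nucleus, made on cytosolic ribosomes and imported. Some of these proteins have bacterial counterparts, and others, such as Mrpl37 to Mrpl46, are found only in mitochondrial ribosomes. Symbols do not always give the subunit: the products of Mrps30 and Mrps18a belong to the large subunit, and that of Mrps36 is a component of the 2-oxoglutarate dehydrogenase complex.

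The libraries held 21090624 to 56249770 reads assigned to genes, and the median member held 851 to 2391 reads per library. Kmt2c lay between 19.7 and 21.9 TPM in WT, at 7.44 to 8.0 TPM in dKO and between 25.3 and 28.6 TPM in dCD. Kmt2d lay between 65.2 and 67.4, between 80.5 and 84.8 and between 54.6 and 67.8 TPM, so RNA of Kmt2c was low in the knockout and that of Kmt2d was not. As the edited part is unknown, these levels do not check the labels. All 10 listed embryonic stem cell markers were detected, and their summed level was 9205 to 9236 TPM in WT, 7128 to 7176 TPM in dKO and 6734 to 6816 TPM in dCD. In dKO 1 of them rose and 9 fell, and in dCD all 10 fell, beside falls of 28.4% and 29.5% of all tested genes. Their median log2 fold change was -0.51 in dKO and -0.42 in dCD. Of 4 smooth muscle markers, 3 passed the filter and rose in both mutant lines, with a summed level of 4.49 to 4.69 TPM in WT, 163.7 to 186.0 TPM in dKO and 962.6 to 1049.7 TPM in dCD. Of 10 fibroblast and feeder cell markers, 6 passed the filter, and Lum, Dcn, Fap and Postn were at or under 1 TPM in every library. Of the 6 that passed, 4 rose and 1 fell in dKO, and 6 rose in dCD. Among all tested genes 43.4% rose in dKO and 28.9% in dCD. The summed level of the 10 fibroblast and feeder cell markers was 25.2 to 27.2 TPM in WT, 62.1 to 64.7 TPM in dKO and 52.1 to 53.3 TPM in dCD. Trophoblast markers (4 of 5 tested; Elf5 at or under 1 TPM) summed to 7.47 to 7.70, 9.0 to 10.8 and 16.3 to 18.1 TPM in WT, dKO and dCD, and primitive endoderm markers (4 of 5 tested; Pdgfra at or under 1 TPM) to 8.61 to 10.2, 13.5 to 14.3 and 13.1 to 15.4 TPM. The part of these marker changes in the results below was not tested, and in bulk RNA fewer cells of a type and less RNA per cell cannot be told apart.

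In WT the members spanned mean levels from 6.39 to 408.6 TPM, with a median of 66.1 TPM. The 5 highest were Mrpl2, Mrpl42, Mrpl4, Mrpl28 and Mrps16. Mrpl2, which has a bacterial counterpart in the core of the large subunit, measured 417.3, 418.7 and 389.8 TPM, above every other member in all 9 libraries. Mrpl42, a protein found only in mitochondrial ribosomes, followed at 291.8, 293.5 and 297.2 TPM, and Mrpl4 at 279.6, 282.2 and 265.4 TPM; these neighbours in the order did not overlap in WT. The 5 lowest were Mrpl48, Mrpl33, Mrpl23, Mrpl13 and Mrps25, with Mrpl48, a protein of the central protuberance, at 6.84, 6.36 and 5.97 TPM. Mrpl48 was the lowest member tested, and none lay close above 1 TPM. A pseudogene row, Mrpl48-ps, reached 17.3 TPM, so reads shared between the rows could make the level of Mrpl48 uncertain. Mrpl48 also overlaps Rab6a in the GRCm38.p6 annotation, a gene with a mean of 55.8 TPM in WT. Mrpl53 was the one member outside the filter, with 0, 0.513 and 0 TPM in the WT libraries, 0.327, 0 and 0.437 TPM in the dKO libraries and 0, 0.392 and 0.298 TPM in the dCD libraries, from at most 5 reads in a library. Its gene overlaps Ccdc142 in the GRCm38.p6 annotation.

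Levels per length depend on the gene length used by the authors, which ranged from 566 bases for Mrps16 to 8631 bases for Mrps35 and exceeded 3000 bases for 25 of the 75 members. Ratios of TPM between lines do not depend on it. Libraries of a line differed little, with a median coefficient of variation over members of 3.12% in WT, 2.31% in dKO and 2.85% in dCD. The same 7 genes were lowest in all 3 lines, Mrpl48, Mrpl33, Mrpl23, Mrpl13, Mrps25, Mrpl47 and Mrps35, and Mrpl2 and Mrpl42 were highest in each.

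The knockout line was set beside WT to ask how far the large and small subunit genes move when Mll3 and Mll4 are lost. No member changed 2-fold: the log2 fold changes ran from -0.47 for Mrps24 to 0.62 for Mrpl16. Within that range 31 members rose and 17 fell at an adjusted p under 0.05 (limma on log2(TPM + 1), Benjamini-Hochberg over all tested genes), and 27 did not pass. In either direction 48 of 75 members passed, beside 71.8% of all tested genes. Rises made up 41.3% of the members against 43.4% of all tested genes, and falls 22.7% against 28.4%. At least 2-fold, 6.01% of all tested genes rose and 7.89% fell, against 0 members in either direction. The median absolute log2 fold change was 0.16 over the members and 0.33 over all tested genes. Libraries of dKO and WT did not overlap for 53 of the 75 members, beside 74.4% of all tested genes.

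Both subunits held rises and falls. Of 47 large subunit genes 19 rose and 11 fell, and of 28 small subunit genes 12 rose and 6 fell. The median log2 fold change was 0.06 for both, beside 0.10 for all tested genes. These medians depended on the scaling of the libraries: after median-ratio scaling, which sets the median gene alike in all libraries, they were -0.04 for the large and -0.05 for the small subunit, and 23 members rose and 31 fell. All 17 falls and 23 of the 31 rises passed in the same direction under median-ratio scaling, quantile normalization and voom on recovered reads.

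**Figure D1:**
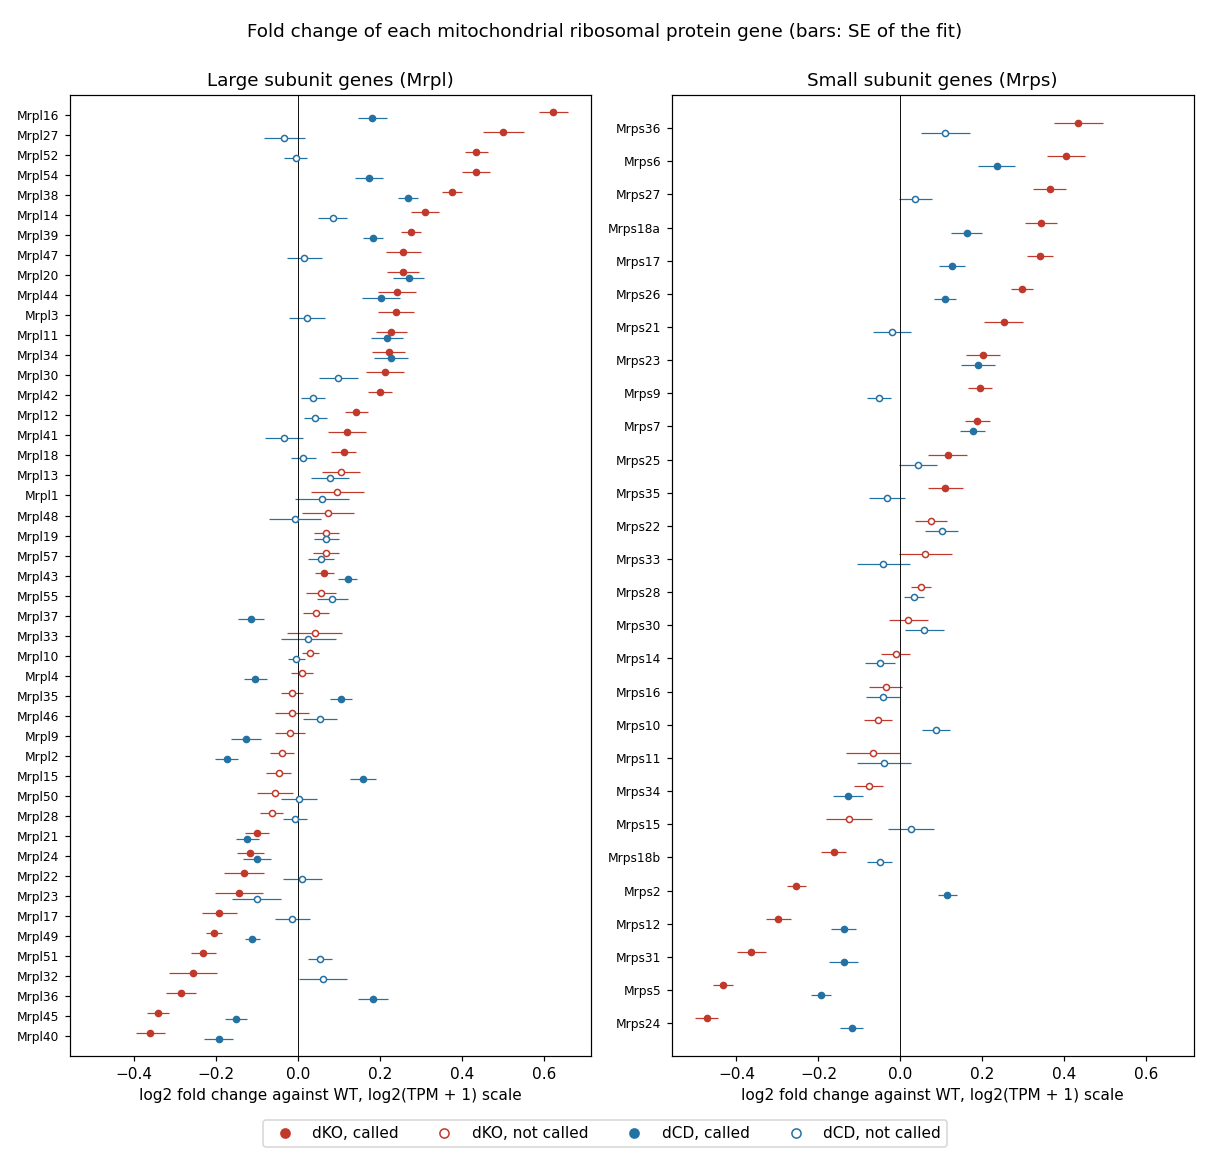
Log2 fold change against WT of each of the 75 members in dKO (red) and dCD (blue), by subunit, with the SE of the fit as bars; filled points passed at an adjusted p under 0.05. No gene reaches a log2 fold change of 1 or -1, and dKO values run from -0.47 to 0.62 while dCD values run from -0.19 to 0.27.

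Among the large subunit genes the greatest rises in dKO were those of Mrpl16, Mrpl27, Mrpl52 and Mrpl54. Mrpl16, whose bacterial counterpart lies near the peptidyl transferase centre, measured 53.5, 59.1 and 54.7 TPM in the WT libraries, 85.3, 87.7 and 85.9 TPM in the dKO libraries and 62.7, 63.7 and 63.5 TPM in the dCD libraries. The 3 lines did not overlap, with dKO the highest, and the log2 fold change in dKO was 0.62 (SE 0.0353, limma adjusted p = 8.25e-08). Mrpl27, also the counterpart of a bacterial protein that reaches towards that centre, measured 55.3, 60.4 and 64.3 TPM in the WT libraries and 87.7, 87.1 and 80.8 TPM in the dKO libraries. Its dCD libraries, at 58.1, 58.6 and 58.8 TPM, lay within the WT range, whereas every dKO library lay above it (log2 fold change 0.50 with a standard error of 0.0505; limma adjusted p = 7.29e-06). The gene overlaps Eme1 in the annotation. Mrpl52, found only in mitochondrial ribosomes, went from 129 ± 4.18 TPM in WT to 175 ± 1.29 TPM in dKO (SD of 3 libraries; 0.43 on the log2 scale) and was 128 ± 3.28 TPM in dCD. Mrpl54, also without a bacterial counterpart, went from 128 ± 5.26 to 173 ± 5.17 TPM (0.43 on the log2 scale) and was 145 ± 3.10 TPM in dCD.

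The greatest falls among the large subunit genes were those of Mrpl40 and Mrpl45. Mrpl40, a protein of the central protuberance, measured 140.6, 148.9 and 149.6 TPM in the WT libraries, 116.9, 112.2 and 112.1 TPM in the dKO libraries and 123.1, 133.0 and 127.2 TPM in the dCD libraries. WT was the highest line without overlap, and dKO the lowest (log2 fold change -0.36 with a standard error of 0.0351; limma adjusted p = 5.48e-06). Mrpl45, which lies at the exit of the peptide tunnel where the ribosome meets the inner membrane, went from 166 ± 2.25 TPM in WT to 131 ± 4.30 TPM in dKO (SD of 3 libraries; log2 fold change -0.34) and 150 ± 2.58 TPM in dCD. Of the 7 tested genes whose products line the tunnel exit, 2 rose in dKO (Mrpl44 at 0.24 and Mrpl47 at 0.26) and 5 fell (Mrpl45, Mrpl17, Mrpl23, Mrpl22 and Mrpl24, from -0.34 to -0.12), beside 43.4% higher and 28.4% lower of all tested genes. In dCD 1 of them rose, 2 fell and 4 did not pass, beside 28.9% and 29.5%. Other places in the ribosome were counted too, and the tunnel exit had the largest share of falls in dKO among them. Of 6 genes of the central protuberance 3 rose and 1 fell in dKO, and of 17 of the large subunit core 6 rose and 3 fell. Of 8 genes of the small subunit head 3 rose and 2 fell, as did 3 and 2 of 8 of its body. The fall of Mrpl23 (log2 fold change -0.15, limma adjusted p = 0.0455) no longer passed without any 1 of 6 libraries: WT replicate 1, 2 or 3, dKO replicate 1 or 2, or dCD replicate 3 (adjusted p from 0.0533 to 0.145). That of Mrpl22 moved from -0.13 to -0.07 without dKO replicate 3 and no longer passed there (adjusted p = 0.0785) or without WT replicate 1 or 3 (0.0923 and 0.0787). The 3 genes of the L7/L12 stalk, which recruits translation factors, had log2 fold changes of 0.23 (Mrpl11), 0.14 (Mrpl12) and 0.03 (Mrpl10), of which the first 2 passed; Mrpl12 no longer passed under median-ratio scaling.

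In the small subunit, Mrps6, the counterpart of a bacterial protein of the small subunit body, measured 45.3, 41.3 and 42.5 TPM in the WT libraries, 56.3, 55.8 and 59.6 TPM in the dKO libraries and 49.2, 53.6 and 49.6 TPM in the dCD libraries. The 3 lines did not overlap (dKO log2 fold change 0.40 with a standard error of 0.0454; limma adjusted p = 1.66e-05), and the gene overlaps Slc5a3 in the annotation. Mrps36, the 2-oxoglutarate dehydrogenase component, had a log2 fold change of 0.43 in dKO, from 39.9 ± 1.53 to 54.3 ± 3.31 TPM (SD, n = 3), and 43.2 ± 3.52 TPM in dCD. The greatest falls were those of Mrps24 and Mrps5. Mrps24, a protein of the small subunit head, measured 190.2, 202.5 and 197.0 TPM in the WT libraries, 144.5, 139.5 and 140.2 TPM in the dKO libraries and 177.8, 179.8 and 185.1 TPM in the dCD libraries. Every dKO library was below every dCD library, and every dCD library below every WT library (dKO log2 fold change -0.47 with a standard error of 0.0281; limma adjusted p = 1.19e-07). Mrps5, the counterpart of a bacterial protein at the channel through which messenger RNA enters, showed the same order at 75.8 ± 0.566 TPM in WT, 55.9 ± 0.223 TPM in dKO and 66.1 ± 1.41 TPM in dCD (SD of 3 libraries; dKO log2 fold change -0.43). Mrps31, in the head and without a bacterial counterpart, fell by 0.36 on the log2 scale, and Mrps12, at the decoding centre, fell by 0.30.

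**Figure D2:**
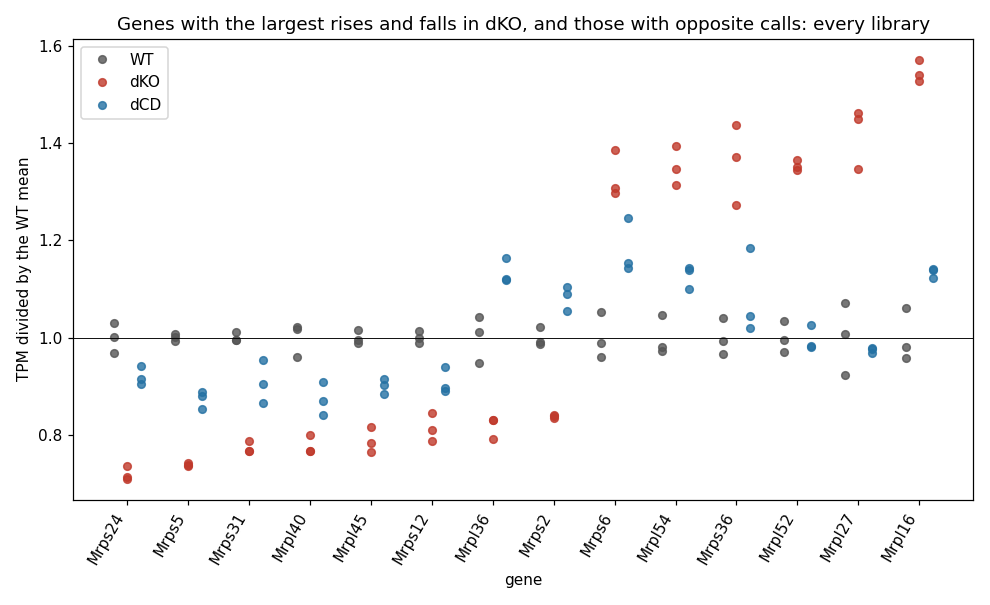
TPM of every library divided by the WT mean of the gene, for the 12 members with the greatest rises and falls in dKO and for Mrps2 and Mrpl36. Points are libraries of WT (grey), dKO (red) and dCD (blue); except for Mrpl27 and Mrpl52 the dCD points of these 12 lie between the WT and the dKO means, and for Mrpl36 and Mrps2 the dCD points lie above WT and the dKO points below.

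The promoters of the members with the greatest rise and fall in each mutant line against WT are shown because these are the genes the fold changes turn on. They come from RefSeq on GRCm38.p6, run from 250 bases before to 50 bases after the annotated start, and are read on the strand of the gene. Capitals mark matches on either strand to motifs of factors known from promoters of this kind. The ETS motif, bound by GABPA among others, was searched as CCGGAAG, and that of YY1 as AAGATGGCG. The E-box was searched as CACGTG, which reads the same on both strands. The TATA box was searched as TATAAA. The letters for the CCAAT box are its name. NRF1 sites were searched with a pattern in which a middle position could be any base. That pattern does not read the same on both strands, and it takes in other sites beside the palindromic one.
Mrpl16, chr19:11770165-11770464, plus strand: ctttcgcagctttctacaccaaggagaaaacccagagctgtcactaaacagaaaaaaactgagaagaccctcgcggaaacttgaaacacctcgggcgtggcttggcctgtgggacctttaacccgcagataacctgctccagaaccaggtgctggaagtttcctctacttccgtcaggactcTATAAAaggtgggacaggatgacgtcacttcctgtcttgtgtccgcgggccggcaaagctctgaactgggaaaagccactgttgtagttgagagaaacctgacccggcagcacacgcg
Mrps24, chr11:5707652-5707951, minus strand: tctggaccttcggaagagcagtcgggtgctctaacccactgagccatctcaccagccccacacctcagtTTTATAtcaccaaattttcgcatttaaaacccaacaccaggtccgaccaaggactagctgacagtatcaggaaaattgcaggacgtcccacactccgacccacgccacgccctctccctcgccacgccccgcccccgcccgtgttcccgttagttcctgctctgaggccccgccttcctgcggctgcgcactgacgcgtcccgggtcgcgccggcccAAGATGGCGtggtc
Mrpl20, chr4:155802628-155802927, plus strand: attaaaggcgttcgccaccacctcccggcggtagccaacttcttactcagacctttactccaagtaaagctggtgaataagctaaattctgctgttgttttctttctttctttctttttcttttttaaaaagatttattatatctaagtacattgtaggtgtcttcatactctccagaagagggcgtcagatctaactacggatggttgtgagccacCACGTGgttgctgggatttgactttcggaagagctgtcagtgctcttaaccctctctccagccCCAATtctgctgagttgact
Mrpl40, chr16:18876588-18876887, minus strand: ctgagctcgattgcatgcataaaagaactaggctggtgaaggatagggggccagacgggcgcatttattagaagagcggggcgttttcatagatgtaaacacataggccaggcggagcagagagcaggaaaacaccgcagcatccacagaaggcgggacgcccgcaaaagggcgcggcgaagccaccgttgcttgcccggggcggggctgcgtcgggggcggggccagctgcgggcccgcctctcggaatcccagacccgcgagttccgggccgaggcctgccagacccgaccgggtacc
Mrpl16 held a TATAAA match and Mrps24 an AAGATGGCG match just inside the start and a TATAAA match on the other strand. Mrpl20 held a CACGTG and a CCAAT match, and Mrpl40 held no match to these letters.

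A promoter was listed for 67 of the 76 members. ETS letters were found in 23 (34.3%), beside 17.6% of the promoters of tested genes and 9.12% of all 27025 genes with a promoter. NRF1 letters were found in 13 (19.4%), beside 10.1% and 4.78%, and YY1 letters in 8 (11.9%), beside 3.14% of the promoters of tested genes. GABPA, NRF1 and YY1 are known regulators of nuclear genes for mitochondrial proteins. CACGTG and TATAAA were each in 4 (5.97%), beside 10.3% and 6.90% of the promoters of tested genes. CCAAT was in 27 (40.3%), beside 39.2%. Among members with a promoter, ETS letters were in 11 of the 28 that rose in dKO, 6 of the 17 that fell and 5 of the 21 that did not pass. NRF1 letters were in 8, 3 and 2 of these, and CCAAT in 13, 4 and 9. The order differed in dCD, where ETS letters were in 5 of the 16 that rose, 2 of the 12 that fell and 15 of the 38 that did not pass. There NRF1 letters were in 3, 2 and 8, and CCAAT in 7, 4 and 15. The match is a description of the letters and no test of binding.

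The summed level of the large subunit genes was 4611, 4674 and 4592 TPM in the WT libraries, 4865, 4845 and 4786 TPM in the dKO libraries and 4628, 4753 and 4687 TPM in the dCD libraries. Every dKO library was above every WT and every dCD library. This order holds for TPM as deposited and was not computed under the other scalings. Median-ratio scaling moved the median log2 fold change of the members in dKO against WT from 0.06 to -0.04. For the small subunit genes the sums were 2041, 2054 and 2050 TPM in the WT libraries, 2045, 2003 and 1976 TPM in the dKO libraries and 2025, 2077 and 2035 TPM in the dCD libraries, so the lines overlapped. The ratio of large to small within a library, which does not depend on the scaling between libraries, was 2.26 ± 0.0180 in WT, 2.41 ± 0.0242 in dKO and 2.29 ± 0.00941 in dCD (SD, n = 3). The 3 lines did not overlap: 2.24 to 2.28 in WT, 2.29 to 2.30 in dCD and 2.38 to 2.42 in dKO. With subunits set by place in the ribosome structure rather than by symbol, the ratios were 2.47, 2.67 and 2.52 for WT, dKO and dCD.

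The difference in sums was spread unevenly over genes. In TPM as deposited, mean levels of large subunit genes were higher in dKO than in WT for 29 of 47 and those of small subunit genes for 16 of 28. Gains summed to 400.2 TPM and losses to -193.7 TPM among large subunit genes, against 132.3 and -173.1 TPM among small subunit genes. Mrpl52, Mrpl54 and Mrpl42 each added 44.0 to 45.6 TPM, while the difference was -55.1 TPM for Mrps24 and -37.8 TPM for Mrps12.

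**Figure D3:**
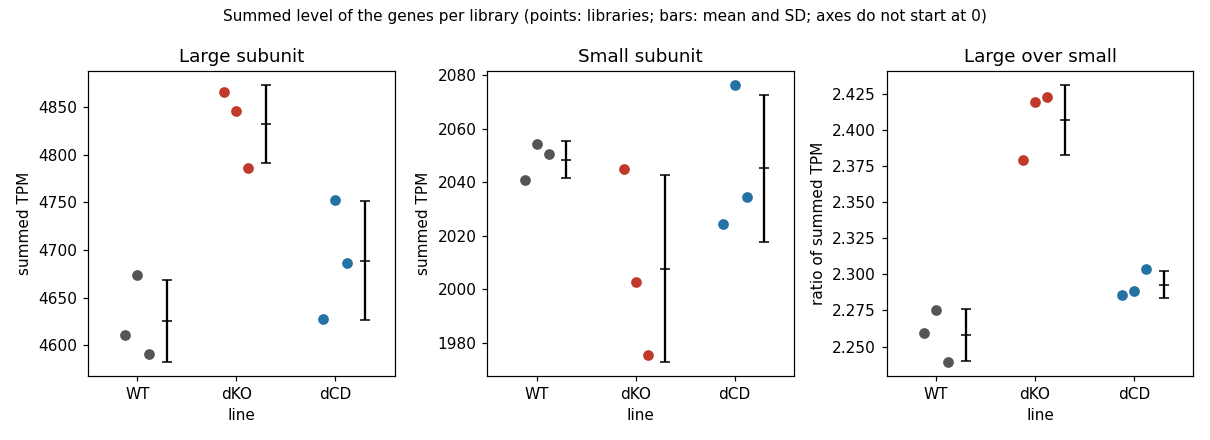
Summed TPM of the 47 large and of the 28 small subunit genes, and the ratio of the sums, per library; points are libraries, bars the mean and SD of the 3 libraries of a line. The ratio lies from 2.24 to 2.28 in WT, from 2.29 to 2.30 in dCD and from 2.38 to 2.42 in dKO; the axes do not start at 0.

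The catalytically deficient line was set beside the same WT libraries. Changes were smaller, with log2 fold changes from -0.19 (Mrpl40) to 0.27 (Mrpl20). Of the 75 members 19 rose, 14 fell and 42 did not pass, so 33 passed in either direction, beside 58.4% of all tested genes. Rises were 25.3% of members beside 28.9% of all tested genes, and falls 18.7% beside 29.5%. At least 2-fold, 4.62% of all tested genes rose and 2.32% fell, against 0 members. Of the large subunit genes 12 rose and 9 fell, and of the small subunit genes 7 rose and 5 fell. The median log2 fold changes were 0.04 and 0.03, beside -0.01 for all tested genes; with subunits set by structure the small subunit median was -0.02. Libraries of dCD and WT did not overlap for 41 members, beside 63.5% of all tested genes. All 33 calls held in direction and test under the 3 scalings.

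Mrpl20, a protein of the large subunit core, measured 72.3, 69.0 and 71.9 TPM in the WT libraries and 84.2, 90.5 and 82.8 TPM in the dCD libraries, without overlap (log2 fold change 0.27 with a standard error of 0.0389; limma adjusted p = 0.000181). Its dKO libraries lay at 87.8, 82.0 and 85.3 TPM, where it also rose (0.25). Mrpl38 of the central protuberance went from 101 ± 2.91 to 121 ± 1.47 TPM (SD of 3 libraries; log2 fold change 0.27), and Mrps6, Mrpl34, Mrpl11 and Mrpl44 rose by log2 fold changes of 0.20 to 0.23. Mrpl44 overlaps Wdfy1 in the annotation. The falls were led by Mrpl40, by Mrps5 (-0.19) and by Mrpl2 (-0.17), the most abundant member, which measured 354.7, 362.5 and 367.8 TPM in dCD, below all WT libraries. In dKO Mrpl2 measured 399.7, 392.9 and 399.0 TPM, within the WT range (log2 fold change -0.04, limma adjusted p = 0.236). That value was -0.07 without WT replicate 3, -0.14 under median-ratio scaling and -0.07 with voom, and passed in each (adjusted p = 0.0156, 0.00283 and 0.0434). Mrpl2 overlaps Klc4 in the annotation. Mrpl45, Mrps31 and Mrps12 fell by 0.15, 0.14 and 0.14 on the log2 scale.

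Each member thus has a value in both mutant lines against shared WT libraries. A pair had opposite calls in the comparisons. Mrpl36, a small protein of the large subunit core, measured 126.8, 130.5 and 118.7 TPM in the WT libraries, 104.2, 104.2 and 99.2 TPM in the dKO libraries and 140.3, 145.9 and 140.2 TPM in the dCD libraries. Its log2 fold change was -0.29 in dKO and 0.18 in dCD (limma adjusted p = 4.62e-05 and 0.00177). Mrps2 of the small subunit measured 132.7, 129.0 and 128.4 TPM in the WT libraries, 108.4, 108.9 and 109.3 TPM in the dKO libraries and 143.7, 137.2 and 141.8 TPM in the dCD libraries. The log2 fold change was -0.25 in dKO and 0.11 in dCD (limma adjusted p = 4.37e-06 and 0.00213). For both genes the 3 lines did not overlap, and both calls held under each scaling tried. Mrps2 overlaps 1700007K13Rik in the annotation, and with no strand setting stated their reads cannot be told apart.

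Set directly against each other, dKO and dCD compare the knockout with the catalytically deficient line, with 1 line for each. Here 26 members were higher in dKO and 19 lower, 34.7% and 25.3% of members beside 42.3% and 27% of all tested genes, and 45 passed in either direction, beside 69.3%. Libraries did not overlap for 48 members, beside 73.1% of all tested genes. No member differed 2-fold, beside 3.60% higher and 7.36% lower of all tested genes. Mrpl27 differed most upwards, at 85.2 ± 3.82 TPM in dKO and 58.5 ± 0.339 TPM in dCD (SD of 3 libraries; log2 difference 0.53 with a standard error of 0.0505, limma adjusted p = 5.19e-06). Mrpl16 and Mrpl52 followed at 0.44, and Mrps27, Mrps36 and Mrps21 at 0.33, 0.32 and 0.27. Mrpl36 differed most downwards, with a log2 difference of -0.47, followed by Mrps2 at -0.37, Mrps24 at -0.35, Mrpl32 at -0.32, Mrpl51 at -0.28 and Mrps5 at -0.24. This split depended on the scaling: after median-ratio scaling 13 members were higher and 34 lower, and all 19 of the lower calls but 13 of the 26 higher calls passed in the same direction under the 3 scalings. Large subunit genes numbered 17 higher and 11 lower, small subunit genes 9 and 8.

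Other genes of mitochondrial translation were counted from lists. The counts are read beside all tested genes, of which 43.4% were higher and 28.4% lower in dKO, and 28.9% and 29.5% in dCD. Of 8 listed proteins of the same ribosome with other names or endings, 7 were found in the expression data and tested. These 7 numbered 2 higher and 3 lower in dKO and 0 and 3 in dCD. Gadd45gip1, of the large subunit, had log2 fold changes of -0.32 in dKO and -0.26 in dCD. Ict1, a peptidyl-tRNA hydrolase built into the large subunit, was at 0.27 in dKO and -0.19 in dCD. Mitochondrial translation factors numbered 9 higher and 1 lower of 15 in dKO, and 3 and 6 in dCD, with Taco1, an activator of cytochrome oxidase subunit translation, at 0.44 in dKO. Factors for ribosome assembly and ribosomal RNA numbered 11 higher and 7 lower of 26 in dKO (42.3% and 26.9%, near the shares of all tested genes) and 2 and 13 in dCD. Rbfa, which helps mature the small subunit RNA, was at -0.73 in dKO and -0.78 in dCD. Their summed level was 1002 to 1018 TPM in WT, 904.1 to 937.9 TPM in dKO and 831.2 to 845.3 TPM in dCD, without overlap.

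Mitochondrial aminoacyl-tRNA synthetases and related genes numbered 10 higher and 6 lower of 20 in dKO and 2 and 10 in dCD, with a median log2 fold change of -0.13 in dCD. Cars2, the cysteine enzyme, was at -0.57 in dCD. Genes of mitochondrial DNA replication and transcription numbered 4 and 4 of 10 in dKO and 0 and 3 in dCD, with the exonuclease gene Mgme1 at -0.66 in dKO and the elongation factor gene Tefm at -0.43 in dCD. Nuclear regulators numbered 6 higher and 1 lower of 10 in dKO and 3 and 2 in dCD. Mycn, a Myc family factor, was at 0.96 in dKO and 0.24 in dCD, while Myc itself was at -0.21 and -0.20. Nrf1 was at 0.18 and 0.11 and Yy1 at 0.14 and 0.19, all passing, and Ppargc1a was under 1 TPM in every library. Gabpa was at 0.11 and 0.04, Gabpb1 at 0.21 and 0.07 and Gabpb2 at 0.12 and -0.35. All of these passed in dKO, but in dCD only the fall of Gabpb2 passed.

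Beside these, 74 nuclear genes for oxidative phosphorylation numbered 44 higher and 12 lower in dKO (59.5% and 16.2%, beside 43.4% and 28.4% of all tested genes), with a median log2 fold change of 0.15. In dCD 27 were higher and 12 lower (36.5% and 16.2%, beside 28.9% and 29.5%), with a median of 0.03. The 79 cytosolic ribosomal protein genes numbered 23 and 20 in dKO (29.1% and 25.3%), with a median of -0.01, and 19 and 6 in dCD (24.1% and 7.59%), with a median of 0.03. No gene of these nuclear lists changed 2-fold in either line. The 13 protein genes of the mitochondrial genome, which this ribosome translates, were at 0.77 TPM or less in every library and were not tested. How reads of the mitochondrial genome were counted is not given in the sources used here. These values are therefore not read as levels of expression.

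**Figure D4:**
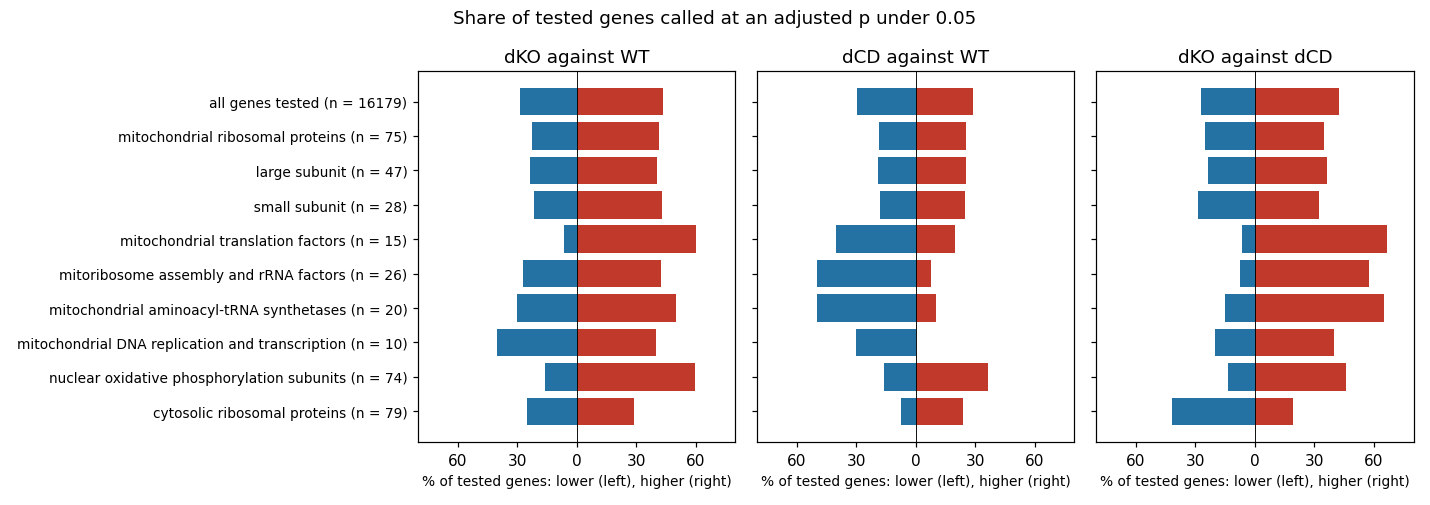
Share of tested genes called higher (right, red) and lower (left, blue) at an adjusted p under 0.05 in each comparison, for all 16179 tested genes, the 75 members, the 2 subunits and 6 other lists; n is the number of tested genes. In dKO against WT 41.3% of the members are higher and 22.7% lower, beside 43.4% and 28.4% of all tested genes.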

How the data were processed

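Polyadenylated RNA of 9 libraries was analysed; the other 39 samples of the series were not analysed here. The authors deposited TPM values, 1 per gene and library, beside gene lengths. HISAT2, featureCounts, DESeq2 and the build mm9 are named in the submitters' processing notes, without versions or roles. Neither the annotation, the strand setting nor the handling of multiply mapped reads is given in the sources used here. TPM multiplied by length and divided by 1 factor per library, estimated from the values, was whole for 100% of values (within 0.01); these recovered reads gave the depths.

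Genes with at least 1 TPM in at least 3 libraries were tested on log2(TPM + 1), with a pseudocount of 1, using limma 3.58.1 in R 4.3.3 (lmFit, eBayes with a trend). All 9 libraries shared 1 fit, with 3 two-sided contrasts adjusted by Benjamini and Hochberg and a threshold of 0.05. Folds are on that scale, which understates changes of low genes. The fit was also run on simulated libraries in which most genes were unchanged. That run cannot speak to the scaling between the real libraries, where most genes were called in each comparison. Tables and plots used Python 3.11.15, pandas 2.3.3, numpy 2.4.6 and matplotlib 3.10.9.

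Members and lists were chosen with earlier results of these data known. Named members were, per contrast, the 6 greatest rises and 6 greatest falls among called genes, the 5 highest and 5 lowest in WT, and those with opposite calls; a few others (Mrpl10, Mrpl12, Mrpl17, Mrpl22, Mrpl24, Mrpl47 and Mrpl53 among them) are named as members of a small group or as exceptions. Listed genes were the greatest rise or fall of a list, with exceptions chosen after their values were seen. These were Nrf1, Yy1, Gabpa and Gabpb1 in both lines, Gabpb2 in dKO, and Ict1 and Myc in dCD. Sequences and overlapping genes were matched by symbol to RefSeq tables on GRCm38.p6 (76 of 76 members), and no coordinates were converted. In that annotation 21 of the 76 members overlap a gene at 1 TPM or more in a library, and not all of these overlaps are named above. Replicate chi-square values per degree of freedom of 1.62 to 4.57 showed no copied library. Alternatives covered the pseudocount, the filter, 3 scalings or models, fits of the 2 lines compared, a replicate block, each library left out, and subunits by structure.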

Additional observations from a re-analysis of the deposited data

How the results depend on the processing

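Counts of called members kept within 1.5 times of the values given under a pseudocount of 0.1, no filter, a minimum of 5 TPM, fits of the 2 compared lines, quantile normalization, voom and each library left out. Median-ratio scaling gave 31 lower members in dKO against WT, and 13 higher and 34 lower in dKO against dCD; it moved the median of all genes from 0.0956 to 0.00549 and from 0.0951 to 0.000866 on the log2 scale, and the share of higher calls among all called genes from 60.4% to 49.9% and from 61.0% to 48.9%. Median log2 fold changes in dKO against WT, for large and small subunit genes, were -0.0403 and -0.0457 under median-ratio scaling, -0.00208 and -0.0266 under quantile normalization and 0.0312 and 0.0294 with voom. In dKO against dCD they were -0.0777 and -0.0895 under median-ratio scaling and -0.0242 and -0.0223 under quantile normalization, and -0.00464 with voom for the small subunit. The large minus small difference of medians, 0.00716 in dKO, 0.00680 in dCD and 0.00898 between the mutant lines, was 0.0245 in dKO and -0.00793 in dCD under quantile normalization. With subunits set by structure, the small subunit median in dCD was -0.0211 and the difference 0.0620. The cause of these moves was not tested.

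Leaving out 1 library at a time, this difference ranged from -0.0117 to 0.0212 in dKO, from 0.00680 to 0.0299 in dCD and from -0.0143 to 0.0182 between the mutant lines. The small subunit median ranged from -0.0128 to 0.0307 in dCD and from 0.00586 to 0.0399 in dKO against dCD; it was -0.0128 in dCD without dCD replicate 2. The large subunit median ranged from 0.0112 to 0.0527 in dCD and from 0.00420 to 0.0501 in dKO against dCD, with the lowest value without dCD replicate 2 and dCD replicate 3 respectively. Counts ranged from 28 to 30 higher and 15 to 19 lower in dKO, 19 to 22 and 12 to 14 in dCD, and 24 to 27 and 16 to 18 between the mutant lines. Of the called members, 42 of 48, 31 of 33 and 38 of 45 passed without any 1 library. Mrps25 in dKO (log2 fold change 0.11, adjusted p = 0.0485) no longer passed in 8 of those 9 fits, all but that without WT replicate 1. Between the mutant lines Mrps15 moved from -0.15 to -0.0977 and Mrpl43 from -0.0579 to -0.0375 without dCD replicate 2, and Mrpl22 from -0.14 to -0.0800 without dKO replicate 3, and none of these passed there. Mrpl4, which did not pass in dKO, was at -0.0944 and passed (adjusted p = 0.0213) under median-ratio scaling. Mrpl28 in dKO (-0.0653, adjusted p = 0.0620) also passed under median-ratio scaling (-0.168) and voom (-0.0951), among 16 values of named members that passed only under an alternative. No pairing by replicate number was visible: deviations from the line mean correlated at -0.05 to 0.04 between libraries of the same number. This cannot show that libraries of the same number were handled apart, as the labels are silent on it. With the replicate block 47 of 48, 33 of 33 and 44 of 45 called members passed. The fewest reads behind a tested member were 263, for Mrps33 in WT replicate 3. Mrpl53, with at most 5 reads in a library, did not reach the filter, and the cause of its few reads was not tested.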

Other observations

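Some members lie beside genes that changed far more than they did, by the order of protein-coding genes in GRCm38.p6. Genes of other types were left out of this order and can lie between the genes named. Mrpl23, at log2 fold changes of -0.15 in dKO and -0.10 in dCD, lies between Tnnt3, under 1 TPM in each line, and Igf2, which was at 5.16 and 3.89. Mrpl52, at 0.43 in dKO and -0.01 in dCD, lies between Slc7a7 at 2.09 and 0.17 and Mmp14 at 2.48 and 0.89. Mrps2, at -0.25 and 0.11, lies between 1700007K13Rik at -0.91 and -0.04 and Gbgt1 at -2.06 and -0.28. Mrps12, at -0.30 in dKO and -0.14 in dCD, lies between Fbxo17 at -1.30 and 0.07 and Sars2, which encodes the mitochondrial seryl-tRNA synthetase, at 0.006 and -0.06. These genes were chosen after their values were seen, and no relation between neighbours was tested.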
